A study of Mus musculus with 6 samples.

Results

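The cortical hem is the medial edge of the embryonic cortex, beside the choroid plexus, and acts as a signalling centre for the hippocampus. This report follows 10 genes chosen by name for their roles in hem Wnt signalling and in patterning of the medial cortex: the ligand genes Wnt3a, Wnt8b, Wnt2b and Wnt5a, the agonist gene Rspo2, the transcription factor genes Lmx1a, Dmrt3 and Dmrta2, and the Wnt readout genes Axin2 and Lef1. Each symbol was matched to its Ensembl identifier, and all 10 were found among the 33084 genes of the count table. RNA came from whole forebrain microdissected at E15.5, from 3 control (wt) and 3 heterozygous mutant (Dyrk1a+/-) mouse embryos of the Dyrk1a+/- line, labelled as biological replicates. The groups differed by genotype alone in the labels, and their comparison asks what differs in forebrain RNA with 1 inactive copy of the kinase gene Dyrk1a. The sources used here do not give the deleted part of Dyrk1a, the strain or whether embryos were pooled. The p-values rest on these 6 samples and set the genotype difference against the spread between samples of the same genotype.

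Wnt ligands made by the hem bind Frizzled and LRP receptors on neighbouring progenitors. This stabilises beta-catenin, which enters the nucleus and acts with TCF and LEF factors on target genes. Lmx1a marks the hem itself, the DMRT factors are graded from medial to lateral in cortical progenitors, and loss of Wnt3a or of Lef1 is known to leave mice without a normal hippocampus. R-spondins raise Wnt signalling by sparing Frizzled receptors from degradation. Axin2 is a feedback inhibitor that beta-catenin induces, and for that reason it is widely used as a readout of the pathway.

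None of the 10 genes passed the test of the genotypes (edgeR's quasi-likelihood test, Benjamini-Hochberg adjusted p under 0.05 over 19403 genes tested), while 0.0103% of all genes tested did. DESeq2 also called none of the 10, against 0.139% of the same genes. At an unadjusted p under 0.05 edgeR had 1 of the 10, Dmrt3, which was higher in Dyrk1a+/-, against 3.27% of all genes tested that were higher at that level. DESeq2 had 3 of the 10 at that level, against 3.82% of all genes it tested, in either direction. With 1 library left out edgeR had 5 of the 10 without wt replicate 3, against 10.5% of all genes in the same fit. It had 3 without Dyrk1a+/- replicate 1, against 7.98%, 2 without Dyrk1a+/- replicate 2, against 8.92%, and 1 without each of the others, against 4.11% to 6.18%. The estimated log2 fold change, Dyrk1a+/- minus wt, was above 0 in 10 of 10 genes, with a median of 0.24, where 51.2% of all genes tested were above 0, with a median of 0.0048. The genes were proposed with results of these data in view, so this count is not independent evidence of a direction. It fell to 7 of 10, with a median of 0.11, when the deepest and the shallowest library (wt replicate 1 and Dyrk1a+/- replicate 3) were left out, with no gene of the 10 at an unadjusted p under 0.05. In whole-forebrain RNA, a change in the number of cells of a type and a change in RNA per cell cannot be told apart.

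Promoter sequences are shown for a ligand and for a readout gene, because these stand at the start and the end of the pathway. RefSeq start-site windows on GRCm38.p6 matched 8 of the 10 genes (all but Wnt5a and Rspo2), with 11 windows in all, 4 of them Lef1 starts. The 2 windows below are the 250 bases before the RefSeq start of Wnt8b and Axin2, both free of exons in the GENCODE M21 annotation, on the plus strand at chr19:44493222-44493471 and chr11:108920099-108920348. Capitals mark CpG dinucleotides.
Wnt8b: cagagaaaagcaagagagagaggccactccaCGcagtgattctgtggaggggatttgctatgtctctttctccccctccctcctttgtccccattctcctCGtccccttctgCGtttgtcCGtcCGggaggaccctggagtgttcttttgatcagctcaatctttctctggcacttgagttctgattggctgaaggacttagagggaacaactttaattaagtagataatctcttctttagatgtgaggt
Axin2: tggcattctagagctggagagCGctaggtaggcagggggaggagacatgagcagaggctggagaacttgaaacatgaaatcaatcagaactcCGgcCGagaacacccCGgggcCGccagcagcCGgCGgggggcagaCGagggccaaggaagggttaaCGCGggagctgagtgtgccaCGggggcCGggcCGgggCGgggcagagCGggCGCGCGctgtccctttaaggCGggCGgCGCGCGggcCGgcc
The Axin2 window held 24 CpG dinucleotides and 69.2% G and C, and the Wnt8b window 5 and 48.4%, beside a median of 52.4% G and C over all windows. The letters CTTTGAA and CTTTGAT, forms of the core that TCF and LEF factors bind, were searched on both strands; the 2 motifs differ in their last letter alone. They were found in 0 of the 11 windows and in 7.5% of 32851 windows of all genes, which says only that these letters are not in the windows searched.

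In wt forebrain the readout gene Axin2 stood highest of the 10 per length. CPM are counts scaled to the effective library size by TMM, and levels per length are given as RPKM, CPM divided by the kilobases of merged exons of the gene. Axin2 was at 9.90 ± 1.04 RPKM (SD, n = 3), and its lowest wt library lay above the highest of every other gene of the set. Dmrta2 followed at 3.97 ± 1.11, then Lmx1a at 2.49 ± 0.225, Wnt5a at 2.49 ± 0.373 and Lef1 at 2.27 ± 0.107 RPKM, and in this run of 4 genes the ranges of neighbours overlapped. Rspo2 was at 1.62 ± 0.121 RPKM and Wnt8b at 1.14 ± 0.236, each with a range clear of its neighbours in the order, and Dmrt3 followed at 0.878 ± 0.0795. The lowest were Wnt2b, at 0.672 ± 0.146 RPKM, and Wnt3a, at 0.630 ± 0.172, whose ranges overlapped each other, as did those of Dmrt3 and Wnt2b. For scale, Wnt7b, a ligand gene of cortical neurons and progenitors, was at 25.5 RPKM, above all 4 ligand genes of the set.

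Wnt8b, a ligand gene of the hem and dentate neuroepithelium (ENSMUSG00000036961, GRCm38 chromosome 19, 44493472 to 44514273), had the highest estimate of the 4 ligands. It was at 3.39, 3.61 and 4.91 CPM in wt replicates 1, 2 and 3, and at 4.06, 6.08 and 6.51 CPM in the Dyrk1a+/- libraries in the same order. Dyrk1a+/- replicates 2 and 3 lay above every wt library, and replicate 1 lay inside the wt range. On the log2 scale the difference was 0.48 (SE 0.22, 95% interval -0.013 to 0.98; adjusted p = 0.647 by edgeR with Benjamini-Hochberg), a ratio of 1.40.

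Wnt3a, the hem ligand needed for the hippocampus (ENSMUSG00000009900, chromosome 11, 59248033 to 59290752), did not separate the genotypes. It was at 1.19, 1.98 and 2.04 CPM in wt and at 1.26, 2.05 and 2.03 CPM in Dyrk1a+/-, so that replicate 1 of either genotype was the low one. Its log2 fold change was 0.045 (SE 0.29; adjusted p = 0.984 by edgeR with Benjamini-Hochberg), and the 95% interval of the ratio ran from 0.655 to 1.63. This was the least counted gene of the 10, with 26 to 57 counts per library; the 26 counts of Dyrk1a+/- replicate 1 allow 0.820 to 1.84 CPM (exact Poisson 95% interval, counting error only).

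Wnt2b and Wnt5a are also made at the hem, and both have other sources in the embryo. Wnt2b (ENSMUSG00000027840, chromosome 3, 104945272 to 104961921) was at 2.47, 3.53 and 2.47 CPM in wt and 2.61, 2.54 and 3.36 CPM in Dyrk1a+/-. All Dyrk1a+/- values lay inside the wt range, and the log2 fold change was 0.0054 (SE 0.21; adjusted p = 0.998 by edgeR with Benjamini-Hochberg), with a 95% interval of the ratio from 0.717 to 1.41. Wnt5a (ENSMUSG00000021994, chromosome 14, 28504750 to 28527448), a ligand best known for signalling without beta-catenin, was at 22.5, 19.2 and 16.7 CPM in wt and 21.7, 22.3 and 24.5 CPM in Dyrk1a+/-. Only Dyrk1a+/- replicate 3 lay above all wt libraries, and the log2 fold change was 0.23 (SE 0.12; adjusted p = 0.71 by edgeR with Benjamini-Hochberg). It was 0.13 without wt replicate 3 and 0.34 without wt replicate 1. Gm2670, on the opposite strand, shares 358 exon bases with Wnt5a and had 101 counts over all libraries; whether counting used strand is not given in the sources used here.

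Rspo2 (ENSMUSG00000051920, chromosome 15, 43020794 to 43170826) encodes the R-spondin of the set. It was at 7.57, 8.49 and 8.74 CPM in wt and 8.84, 8.37 and 11.8 CPM in Dyrk1a+/-. Replicate 3 of Dyrk1a+/- stood well above the other 5 libraries, which lay close together. The log2 fold change was 0.22 (SE 0.15; adjusted p = 0.773 by edgeR with Benjamini-Hochberg), and it was 0.058 without Dyrk1a+/- replicate 3.

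**Figure D1:**
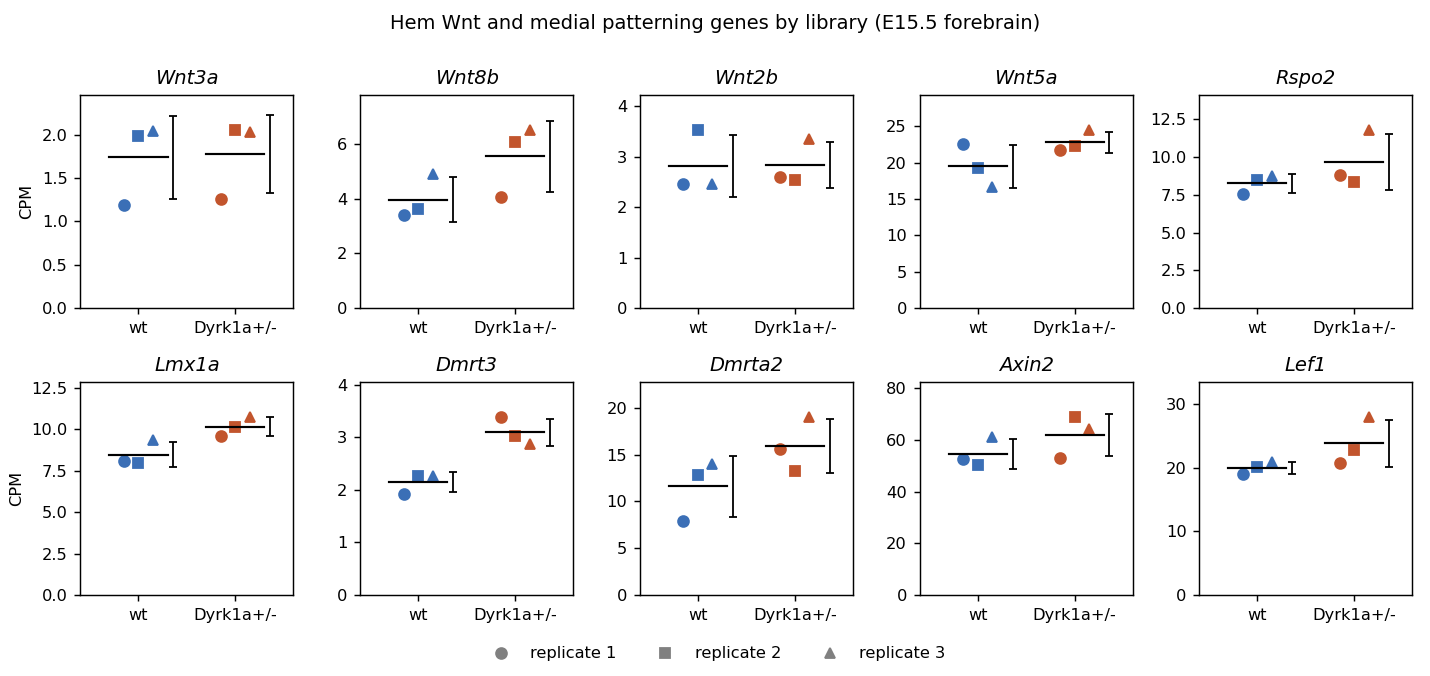
CPM of the 10 genes in each library, by genotype; points are libraries (shape gives the replicate number), lines are means and bars are 1 SD over 3 libraries, and each panel has its own axis from 0. The genotypes do not overlap in Lmx1a and Dmrt3 and overlap in the 8 others.

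Lmx1a and Dmrt3 were the 2 genes of the 10 in which every Dyrk1a+/- library lay above every wt library, as 6.53% of all genes tested did. Lmx1a, the LIM homeodomain gene of the hem and roof plate (ENSMUSG00000026686, chromosome 1, 167689237 to 167848741), was at 8.09, 7.97 and 9.35 CPM in wt and 9.56, 10.1 and 10.7 CPM in Dyrk1a+/-. The lowest Dyrk1a+/- library was close to the highest wt library. Its log2 difference was 0.26 (SE 0.12, 95% interval -0.014 to 0.53; adjusted p = 0.659 by edgeR with Benjamini-Hochberg).

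Dmrt3, a DM-domain factor gene of medial cortical progenitors (ENSMUSG00000042372, chromosome 19, 25610301 to 25623921), was at 1.92, 2.26 and 2.26 CPM in wt and 3.38, 3.02 and 2.88 CPM in Dyrk1a+/-. The gap between the genotypes was wider than the range within either. The log2 difference was 0.53 (SE 0.17, 95% interval 0.13 to 0.92), a ratio of 1.44, with an unadjusted p of 0.0143 and a Benjamini-Hochberg adjusted p of 0.526 by edgeR. Each library held 54 to 75 counts of it. The 54 counts of Dyrk1a+/- replicate 3 allow 2.16 to 3.76 CPM (exact Poisson 95% interval, counting error only), which reaches the highest wt library. An exact 2-sided permutation test of CPM gave p = 0.1 for Dmrt3 and for Lmx1a, which is as small as 3 against 3 libraries can give.

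Dmrta2, also called Dmrt5, acts with Dmrt3 in the medial cortex (ENSMUSG00000047143, chromosome 4, 109978053 to 109983687). It was at 7.93, 12.9 and 14.0 CPM in wt and 15.6, 13.2 and 19.0 CPM in Dyrk1a+/-. Wt replicate 1 was low, and Dyrk1a+/- replicate 2 lay within the wt range. The log2 fold change was 0.46 (SE 0.22; adjusted p = 0.672 by edgeR with Benjamini-Hochberg), and it was 0.24 without wt replicate 1.

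The readout genes Axin2 and Lef1 had the narrowest intervals with Wnt5a and Lmx1a. Axin2 (ENSMUSG00000000142, chromosome 11, 108920349 to 108950783) was at 52.4, 50.1 and 61.0 CPM in wt and 52.8, 68.7 and 64.3 CPM in Dyrk1a+/-. The ranges overlapped, with Dyrk1a+/- replicate 1 near the lower wt libraries. The log2 fold change was 0.19 (SE 0.12; adjusted p = 0.747 by edgeR with Benjamini-Hochberg), and the 95% interval of the ratio ran from 0.949 to 1.36. It was 0.10 on the log2 scale without Dyrk1a+/- replicate 2 and 0.29 without Dyrk1a+/- replicate 1.

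Lef1, the gene of a TCF family factor that is itself induced by Wnt signalling (ENSMUSG00000027985, chromosome 3, 131110471 to 131224356), was at 18.9, 20.1 and 20.8 CPM in wt and 20.8, 22.7 and 27.9 CPM in Dyrk1a+/-. Wt replicate 3 and Dyrk1a+/- replicate 1 were almost equal, and Dyrk1a+/- replicate 3 stood above the rest. The log2 fold change was 0.25 (SE 0.12; adjusted p = 0.674 by edgeR with Benjamini-Hochberg), with a 95% interval of the ratio from 0.985 to 1.44, and it was 0.12 without Dyrk1a+/- replicate 3. Gm43352, on the opposite strand, shares 1208 exon bases with Lef1 and had 60 counts over all libraries.

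**Figure D2:**
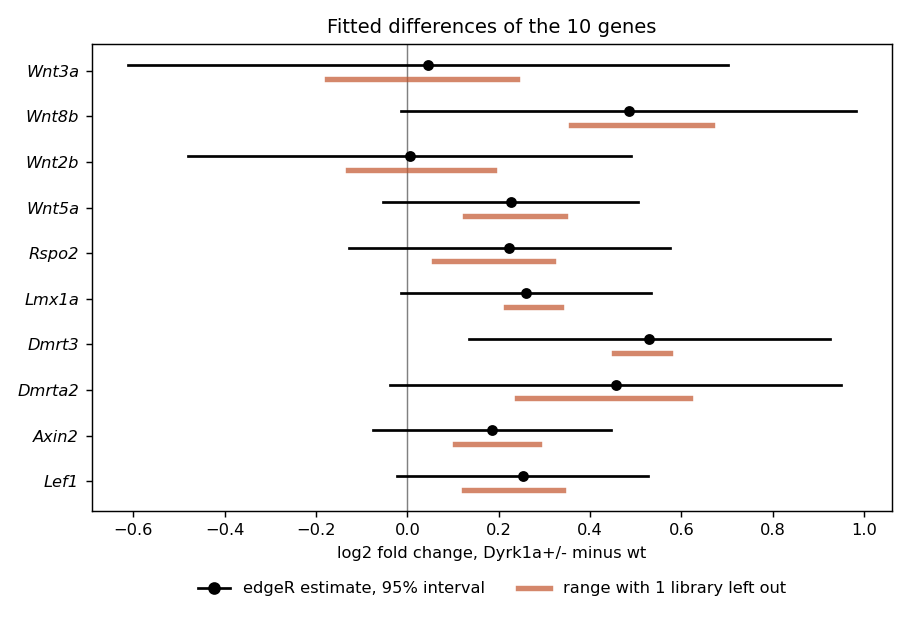
Log2 fold change of each gene, Dyrk1a+/- minus wt, from edgeR, with its 95% interval (black) and the range of estimates with 1 library left out (orange). The interval lies above 0 for Dmrt3 (0.13 to 0.92), before adjustment over all genes, and spans 0 for the 9 others.

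The same libraries were low or high across the set. Relative to each gene's mean log2 CPM over the 6 libraries, wt replicate 1 was the lowest library for 7 of the 10 genes and Dyrk1a+/- replicate 3 the highest for 6. All 10 genes were above their own mean in Dyrk1a+/- replicate 3, and 1, Wnt5a, was in wt replicate 1. Averaged over the 10, the deviations were -0.30, -0.077 and -0.027 in wt and -0.021, 0.12 and 0.30 in Dyrk1a+/-. Wt replicate 3 and Dyrk1a+/- replicate 1 thus lay at nearly the same level. The 4 genes with their highest value elsewhere were Dmrt3, in Dyrk1a+/- replicate 1, Wnt2b, in wt replicate 2, and Wnt3a and Axin2, in Dyrk1a+/- replicate 2.

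**Figure D3:**
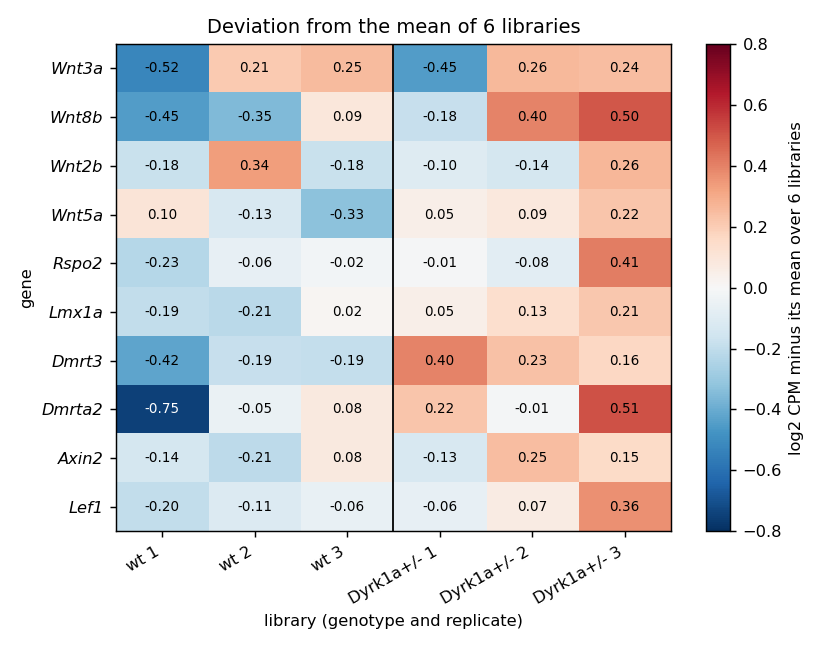
Deviation of each gene in each library from its mean log2 CPM over the 6 libraries (printed in each cell; blue below, red above), libraries in columns and genes in rows. Wt replicate 1 is below the mean for 9 of the 10 genes and Dyrk1a+/- replicate 3 above it for all 10.

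Library totals ran from 18699434 counts (Dyrk1a+/- replicate 3) to 32865708 (wt replicate 1), so the outer libraries of the set were also the shallowest and the deepest. Every Dyrk1a+/- library was shallower than every wt library, so depth went with genotype. The closest were Dyrk1a+/- replicate 2 (25012356 counts) and wt replicate 2 (25270710). With counts thinned to the smallest total, 10 of 10 estimates were above 0, with a median of 0.27. Thinning keeps the expected CPM of every gene in a library, so this fit cannot tell depth from genotype. Wt replicate 3 and Dyrk1a+/- replicate 2 formed a pair distinct from the 4 others in principal component analysis, and 7SK with the RNAs of RNase P and RNase MRP was most abundant in them (4.46% and 4% of counts, against 2.57% to 3.01%). The labels name both polyA RNA and a total RNA kit that removes ribosomal RNA, and the sources used here do not settle which gave these libraries. Within that pair the log2 CPM difference of Dyrk1a+/- from wt was 0.31 for Wnt8b, 0.12 for Lmx1a, 0.42 for Dmrt3, -0.089 for Dmrta2, 0.41 for Wnt5a and -0.062 for Rspo2. Within the 4 others it was 0.56, 0.33, 0.58, 0.77, 0.15 and 0.35 in the same order of genes, so Dmrta2 and Rspo2 differed in sign between the 2 sets. Dyrk1a itself was at 160 to 186 CPM in wt and 147 to 158 CPM in Dyrk1a+/-. Every Dyrk1a+/- library lay below every wt library, as in 1453 of 19403 genes tested. Dyrk1a did not pass (log2 fold change -0.20, a ratio of 0.868, unadjusted p = 0.0306 and adjusted p = 0.59 by edgeR with Benjamini-Hochberg). The cortical neuron gene Neurod6, a forebrain marker, was at 247 ± 10.7 CPM in wt and 245 ± 11.5 CPM in Dyrk1a+/- (SD, n = 3), and the midbrain genes En1, En2 and Pitx3 were too low to be tested.

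Markers of cycling progenitors followed the same order over the 6 libraries as the mean of the 10 genes. Their summed level was 893 to 1012 CPM in wt and 1130 to 1415 CPM in Dyrk1a+/-, with 10 of 10 estimates above 0 and a median log2 fold change of 0.34, which was 0.17 without the deepest and shallowest library. None of these markers passed edgeR's test, and 9 were higher at an unadjusted p under 0.05, against 3.27% of all genes tested. DESeq2 called 2 of the markers, against 0.139% of the same genes. The mean deviations of the markers were -0.28, -0.12 and -0.11 in wt and 0.033, 0.13 and 0.35 in Dyrk1a+/-. Forebrain markers were at -0.15 in wt replicate 1 and 0.27 in Dyrk1a+/- replicate 3 on the same scale, with a median log2 fold change of 0.065, which was -0.044 without Dyrk1a+/- replicate 3. The part of progenitor number or of dissection in the values of the 10 genes was not tested.

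Most genes of a wider medial pallium list, which holds genes of cortical progenitors too, had estimates above 0. Of 15 genes of the medial pallium and hippocampal primordium, 12 were above 0, with a median log2 fold change of 0.18. Neither edgeR nor DESeq2 called any. The 4 with an unadjusted p under 0.05 by edgeR, where 3.27% of all genes tested were higher at that level, were all higher. These were Pax6 (0.29, SE 0.075; 59.0 against 72.1 CPM), which patterns cortical progenitors, Gli3 (0.32, SE 0.10), needed for hem formation, Nr2f1 (0.22) and Lhx2 (0.27), the selector gene that holds cortex against hem fate. In these 4 every Dyrk1a+/- library lay above every wt library, as 6.53% of all genes tested did. The 3 genes below 0 were Nrp2 (-0.16), with every Dyrk1a+/- library below every wt library, Zbtb20 (-0.078) and Prox1 (-0.077). Of all 19403 genes tested, 1453 had every Dyrk1a+/- library below every wt library. The median of the 15 was 0.066 without Dyrk1a+/- replicate 3, 0.27 without Dyrk1a+/- replicate 2 and -0.026 without the deepest and shallowest library. In the list of hem BMP and dorsal midline genes 9 of 15 tested were above 0, with a median of 0.12, and none passed either test. That median was 0.023 without wt replicate 1, 0.0086 without Dyrk1a+/- replicate 2 and 0.034 without Dyrk1a+/- replicate 3. Zic2 had the lowest p there (0.27, SE 0.097), followed by Rspo3 (0.26), and Bmp7 was at -0.20, with all Dyrk1a+/- libraries below wt.

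Lists of the wider Wnt pathway had medians near 0. Of 9 other Wnt ligand genes tested, 5 were above 0, with a median log2 fold change of 0.034. The 2 at an unadjusted p under 0.05 were lower, Wnt4 (-0.41, SE 0.15) and Wnt6 (-0.72, SE 0.29). Over all genes tested, 894 of 19403 were lower at that level. Of 16 receptor genes 12 were above 0, with a median of 0.051, and Fzd8, a Frizzled receptor gene of cortical progenitors, had the lowest p (0.32, SE 0.12). The 16 genes of the beta-catenin core and TCF factors had a median of 0.042, 11 secreted inhibitors -0.061, 7 R-spondin, Lgr and ligase genes 0.0092 and the 2 Wnt secretion genes -0.010. Lgr6, an R-spondin receptor gene, was lower in every Dyrk1a+/- library than in any wt library, as were 1453 of 19403 genes tested. Its log2 fold change was -0.55 (SE 0.21, unadjusted p = 0.0295 and adjusted p = 0.59 by edgeR with Benjamini-Hochberg). With 1 library left out the medians ran from -0.14 (other ligands, without Dyrk1a+/- replicate 2) to 0.12 (the R-spondin list, without wt replicate 1). The inhibitor median was 0.063 without Dyrk1a+/- replicate 2 and -0.12 without Dyrk1a+/- replicate 1, and the receptor list alone had 1 sign in all 6 of these fits. None of the genes in these lists passed edgeR or DESeq2.

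Other feedback and target genes of the pathway had estimates spread on either side of 0. Of 14 such genes 8 were above 0, with a median log2 fold change of 0.0053 (-0.084 to 0.056 with 1 library left out), and none passed edgeR or DESeq2. The paralogous feedback inhibitors Nkd1 and Nkd2 lay on opposite sides. Nkd1 was at 14.6, 17.3 and 17.3 CPM in wt and 20.6, 19.0 and 22.7 CPM in Dyrk1a+/-, all of these above wt (0.34, SE 0.11; adjusted p = 0.53 by edgeR with Benjamini-Hochberg). Nkd2 was at 11.3, 10.9 and 13.0 CPM in wt and 9.47, 10.7 and 8.43 CPM in Dyrk1a+/-, all of these below wt (-0.30, SE 0.13; adjusted p = 0.639 by edgeR with Benjamini-Hochberg). Over all genes tested, every Dyrk1a+/- library lay above every wt library in 6.53%, and below every wt library in 1453 of 19403. Lgr5, Bambi and Znrf3 had estimates within 0.01 of 0.

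Cells that arise from or beside the hem gave mixed values. Of 10 markers of Cajal-Retzius cells, which leave the hem to cover the cortex, 6 were above 0, with a median log2 fold change of 0.20; Nhlh2 was at 0.35 (SE 0.13) and Calb2 at -0.31 (SE 0.14), and the most abundant, Reln, at -0.12. Their median was 0.11 without wt replicate 1, 0.074 without Dyrk1a+/- replicate 3 and 0.025 without the deepest and shallowest library. Of 12 choroid plexus markers 3 were above 0, with a median of -0.050, which was 0.025 without Dyrk1a+/- replicate 3. Prlr, the prolactin receptor gene, had the lowest p of them (-0.48, SE 0.21; unadjusted p = 0.0483 and adjusted p = 0.63 by edgeR with Benjamini-Hochberg), and transthyretin, Ttr, was at 352 ± 39.6 CPM in wt and 343 ± 79.6 CPM in Dyrk1a+/- (SD, n = 3). Lmx1a and Wnt2b are also expressed in or near the choroid plexus, whose summed markers were at 440 to 514 CPM in wt and 354 to 511 CPM in Dyrk1a+/-. None of either list passed edgeR or DESeq2.

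**Figure D4:**
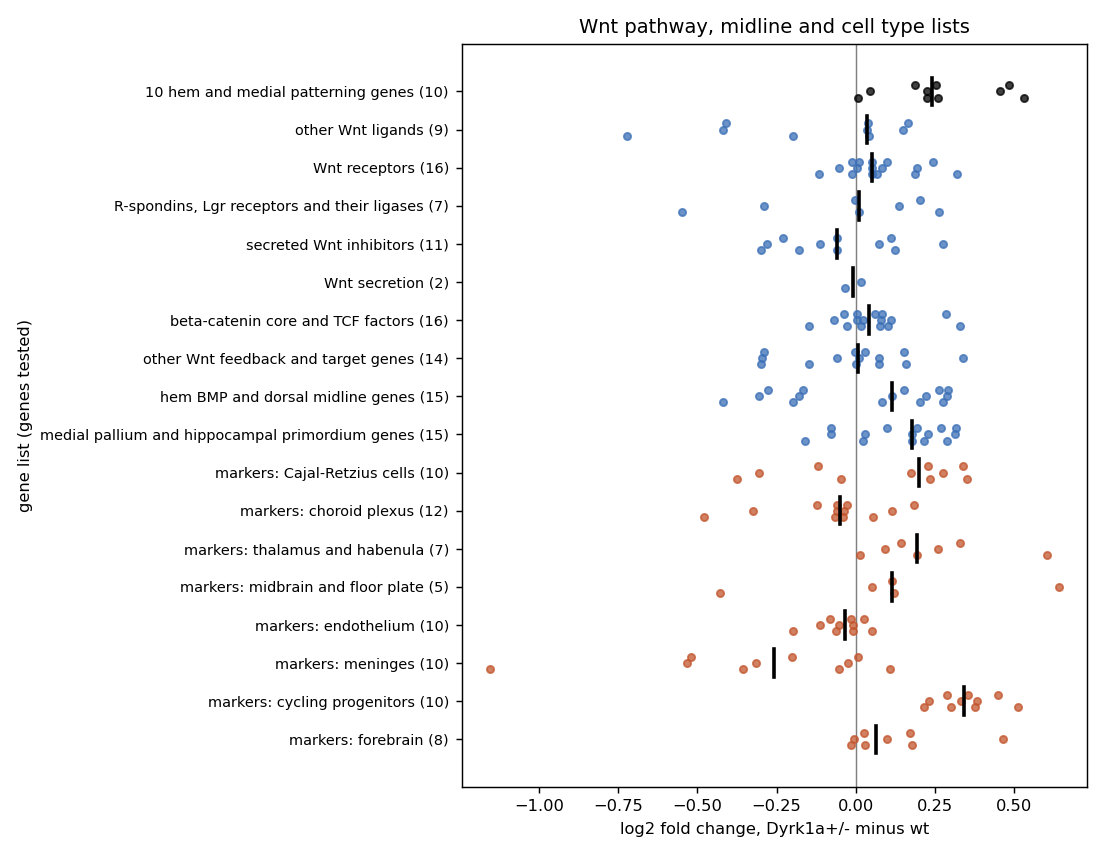
Log2 fold change, Dyrk1a+/- minus wt, of every tested gene in each list (points; vertical offsets only separate them) with the list median (bar); black, the 10 genes; blue, pathway and patterning lists; orange, cell type markers. The medians are 0.24 for the 10 genes, 0.34 for cycling progenitors, 0.18 for the medial pallium list and between -0.061 and 0.051 for the 7 Wnt pathway lists.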

How the data were processed

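The deposited values were raw counts per Ensembl gene, 1 column per library. Per the submitters' processing notes, the authors used bcl2fastq 2.17.1.14, HISAT2 on GRCm38/mm10, SAMtools 1.9 and HTSeq 0.9.1; the annotation release and strand setting are not given. GENCODE M21 gave symbols for 32888 of 33084 genes, and exon lengths for RPKM. Genes were kept by filterByExpr (19403) and scaled by TMM, and genotype was fitted in edgeR 4.0.16 (quasi-likelihood) under R 4.3.3, p-values being adjusted by Benjamini-Hochberg over all genes tested; DESeq2 1.42.0 was an alternative. Log2 fold changes are Dyrk1a+/- minus wt, with SE and intervals from the F statistic. On simulated data for this comparison (19403 genes) edgeR called 38% of changes of 1.5-fold and 78% of those of 2-fold. The 200 changed genes were drawn from all genes tested, at any level. The pair of libraries that stood apart was not modelled, and the shares for genes as low as most of the 10 were not tested. No library was a copy of another (chi-square over its degrees of freedom, 4.55 to 29.7 for pairs of libraries). Genes and lists were chosen with earlier results of these data known. All 10 genes are named. From other lists the rule took called genes, the 3 of lowest p and, for marker lists, the 2 most abundant, not all of them printed. Outside that rule lie Lgr5, Bambi, Znrf3, Lhx2, Nrp2, Zbtb20, Prox1, Col1a1, En1, En2, Pitx3 and Wnt7b. These were named after their values were seen. Reads are not independent molecules, so counting intervals cover counting error only.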

Additional observations from a re-analysis of the deposited data

How the results depend on the processing

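None of the 10 genes was called in any alternative run: DESeq2 size factors or test, no filter or a filter of 1 CPM, an adjusted p under 0.1, the replicate block, each library left out, a term for the pair of libraries that stood apart, the 4 others alone, and, chosen after seeing the data, thinned counts and the fit without the deepest and shallowest library. Estimates above 0 numbered 8 to 10 of 10 with 1 library left out, with medians of 0.17 to 0.29. Wnt3a ran from -0.18 to 0.24 and Wnt2b from -0.13 to 0.19 in those fits. Without the deepest and shallowest library Wnt3a was at -0.27, Wnt2b at -0.22 and Rspo2 at -0.0023, and with no low-count filter Wnt2b was at -0.0066; the cause was not tested. With the pair term 6 of the 10 were at an unadjusted p under 0.05, against 15.7% of all genes in that fit, and on the 4 others alone 4, against 12.9%. Of the context genes 1 (Ptgds) passed, against 3 by DESeq2, 0 with the replicate block, 0 without the deepest and shallowest library and 0 to 1 with 1 library left out. Over all genes edgeR called 2, DESeq2 27, the replicate block 0, no filter 4, the pair term 6, the 4 others 6, and 0 to 5 with 1 library left out. No pairing of the samples by replicate number was visible (correlations of same-numbered deviations 0.20, -0.32 and -0.16), and wt replicate 3 was closest to Dyrk1a+/- replicate 2 (0.45). That pair weighs on the correlations, so they cannot show that the samples were unpaired. Wnt3a had the fewest counts of the 10, 26 to 57 per library.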

Other observations

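Tissues that share Wnt signals with the hem were read from the same fit. Of 10 meningeal markers 8 were below 0, with a median log2 fold change of -0.26 (-0.17 without Dyrk1a+/- replicate 2); Ptgds, the prostaglandin D synthase gene, fell (-1.15, SE 0.11; adjusted p = 0.0238 by edgeR with Benjamini-Hochberg). No other gene of these lists passed edgeR, and this call was lost without wt replicate 1, wt replicate 2, Dyrk1a+/- replicate 1 or Dyrk1a+/- replicate 3, each left out alone. Postn was at -0.53, Col1a2 at -0.32 and Col1a1 at 0.0083. The summed meningeal level was 290 to 326 CPM in wt and 221 to 258 CPM in Dyrk1a+/-. Of 10 endothelial markers, from vessels whose barrier depends on Wnt7 ligands, 2 were above 0, with a median of -0.035; none passed either test, Tek was at -0.20, and the abundant Kdr and Slc2a1 were at -0.0099 and -0.010.

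All 7 markers of thalamus and habenula were above 0, with a median of 0.19 (0.065 without Dyrk1a+/- replicate 3) and none passing either test. Their mean deviation was 0.42 in Dyrk1a+/- replicate 3 and between -0.20 and -0.013 in the 5 other libraries. Tcf7l2, the TCF gene that marks the thalamus, was at 63.7 ± 10.3 CPM in wt and 80.0 ± 20.5 CPM in Dyrk1a+/- (SD, n = 3). Of 5 midbrain and floor plate markers tested 4 were above 0, with a median of 0.11, and none passed either test. That median was -0.13 without Dyrk1a+/- replicate 3 and -0.15 without the deepest and shallowest library.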
